A study of Mus musculus with 36 samples.

Results

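The early growth response genes Egr1, Egr2, Egr3 and Egr4 and the genes of their corepressors Nab1 and Nab2 were followed in the anterior cingulate cortex (aCC) of mice with or without a Brd1 deletion after imipramine (IMN) or vehicle. The 6 genes were taken by name from a table of 52636 genes, of which 25572 passed a filter on low values, all 6 among them. The family was picked because lower immediate-early transcript levels after IMN were already known in these libraries, so IMN and vehicle mice are compared for the 6 genes as a description, and the calls on this contrast are printed only as counts beside their background and support nothing. The genotype comparisons, the interaction of genotype with IMN and the correlations between mice did not choose the genes and were tested.

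The study sequenced RNA of right aCC punches from 36 female mice of the C57BL/6NTac-Brd1 line (C57BL/6NTac-Brd1tm1.2Arte/AborgMmucd in the study's methods), aged 8 to 11 weeks. WT littermates and Brd1+/- mice, which carry a targeted deletion in 1 Brd1 copy, received a subcutaneous injection of saline vehicle or of IMN at 10 mg/kg, an inhibitor of monoamine reuptake used as an antidepressant, on 2 consecutive days. Vehicle went to 8 WT and 9 Brd1+/- mice and IMN to 10 WT and 9 Brd1+/- mice, with 1 library each. All 36 mice, vehicle mice included, went through tail suspension, an open field and a forced swim, and brains were taken about 1 h after the swim, so that no group represents unstressed cortex.

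EGR proteins are zinc finger transcription factors that bind GC-rich DNA, and in cortical neurons synaptic activity switches their genes on within minutes through calcium and MAP kinase signals that reach serum response factor, its ETS partners and CREB. Egr1 is widely used as a mark of recent neuronal activity, Egr2 is known from myelinating Schwann cells and from activated neurons, Egr3 from muscle spindle development and memory, and Egr4 from male germ cells and neurons. NAB1 and NAB2 have no DNA-binding domain of their own: they dock on EGR1, EGR2 and EGR3 and repress their targets, in part by bringing in the NuRD complex through CHD4. Nab2 is itself induced by EGR factors and closes a negative feedback loop, whereas Nab1 is held to be expressed more evenly.

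Levels were in TPM, a share of the library's transcripts that divides by transcript length and can therefore be compared between genes, while the sequencing depth of each library is unknown and no counting error can be given. On this scale Egr1 was the most abundant member with a mean of 250 TPM over the 36 libraries, followed by Egr3 at 145 TPM, Egr4 at 62.2 TPM, Nab2 at 45.1 TPM, Egr2 at 21.7 TPM and Nab1 at 15.2 TPM. Egr1 stood above Egr3 in 36 of 36 libraries, Egr3 above Egr4 in 34, Egr4 above Nab2 in 31 and Nab2 above Egr2 in 36. Egr2 and Nab1 did not keep an order. Egr2 was above Nab1 in 7 of 8 WT vehicle and 8 of 9 Brd1+/- vehicle libraries, but in 4 of 10 WT IMN and 4 of 9 Brd1+/- IMN libraries. In GRCm38 the genes lie at chr18:34859823-34864984 (+ strand, Egr1), chr10:67535475-67542188 (+, Egr2), chr14:70077203-70082614 (+, Egr3), chr6:85511121-85513589 (−, Egr4), chr1:52457294-52500679 (−, Nab1) and chr10:127660918-127668568 (−, Nab2), and all are protein coding. The members also differed in how much mice of 1 group varied. The within-group standard deviation on the log2(TPM + 0.5) scale, used for every difference here, was 1.01 for Egr2, the 422nd largest of 17696 genes that averaged 1 TPM or more. It was 0.64 for Egr3, 0.55 for Egr4, 0.39 for Egr1, 0.33 for Nab1 and 0.22 for Nab2, against a median of 0.25 over these genes. Egr2 ranged 39.2-fold between the lowest library (1.11 TPM) and the highest (43.6 TPM), and Nab2 2.31-fold.

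**Figure D1:**
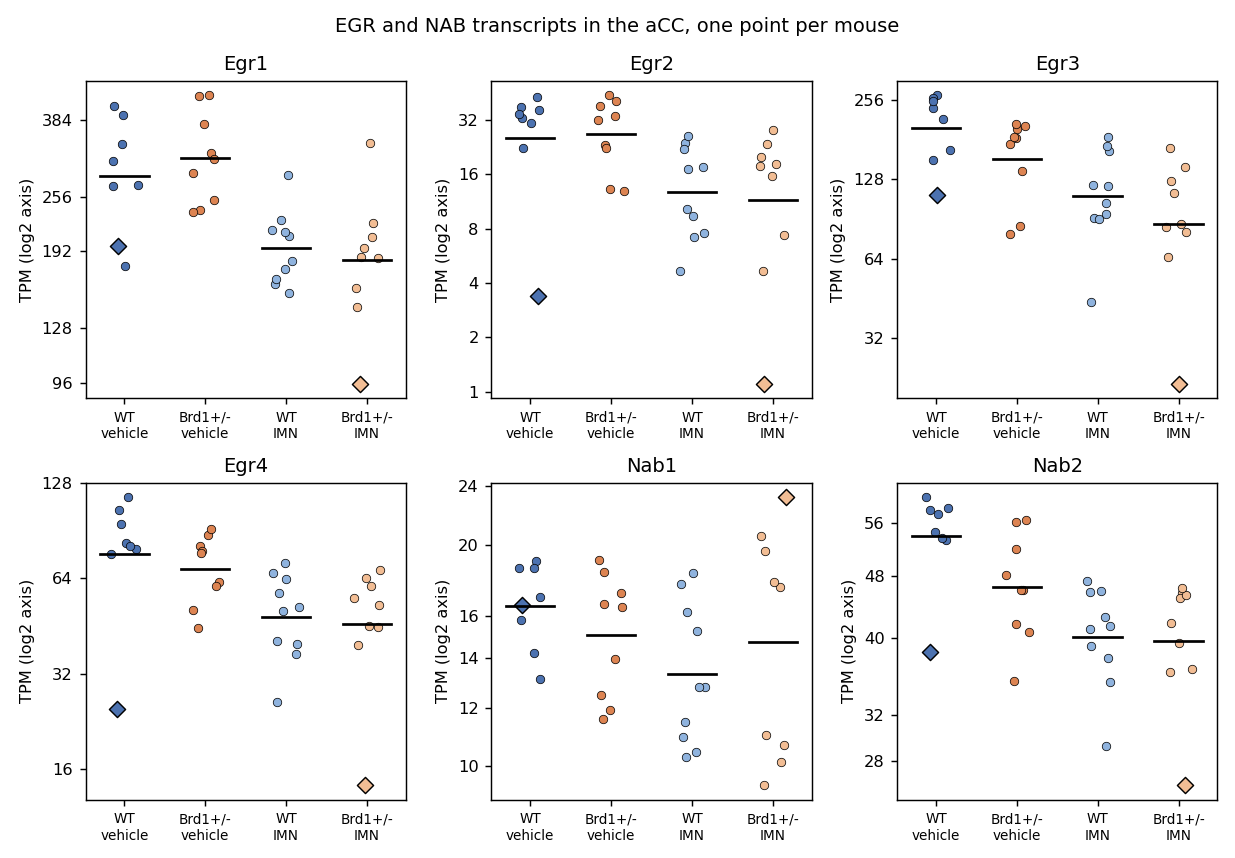
Level of each member in TPM (log2 axis) in every mouse by group. Bars are group means taken on the log2 scale, and diamonds mark WT vehicle replicate 1 and Brd1+/- IMN replicate 6. The second of these has the lowest Egr1, Egr2, Egr3, Egr4 and Nab2 levels and the highest Nab1 level of its group.

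Proximal promoter sequence is shown so that the members can be compared for the letters that the factors named above recognise. RefSeq's GRCm38.p6 promoter table matched 4 of the 6 members, Egr2, Egr4, Nab1 and Nab2. Each run is the 250 bases before an annotated start, read 5′ to 3′ on the gene's strand, and capitals mark matches, on either strand, to the EGR site GCGTGGGCG or GCGGGGGCG, to the CREB half-site TGACG, or to the CArG box, the core of the serum response element. The Egr2 window is chr10:67537619-67537868 (+ strand), 1 of 5 annotated Egr2 windows, Egr4 is chr6:85513590-85513839 (− strand), Nab2 chr10:127666704-127666953 (− strand) and Nab1 chr1:52500449-52500698 (− strand).
Egr2: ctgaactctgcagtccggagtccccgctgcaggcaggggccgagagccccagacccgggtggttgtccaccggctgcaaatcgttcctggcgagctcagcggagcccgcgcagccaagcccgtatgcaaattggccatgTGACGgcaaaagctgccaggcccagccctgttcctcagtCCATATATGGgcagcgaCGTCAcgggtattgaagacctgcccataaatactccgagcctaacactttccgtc
Egr4: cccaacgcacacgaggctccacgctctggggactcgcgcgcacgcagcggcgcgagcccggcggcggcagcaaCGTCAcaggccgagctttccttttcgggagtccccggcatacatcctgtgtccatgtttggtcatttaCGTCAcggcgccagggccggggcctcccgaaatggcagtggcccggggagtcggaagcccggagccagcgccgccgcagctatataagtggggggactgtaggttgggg
Nab2: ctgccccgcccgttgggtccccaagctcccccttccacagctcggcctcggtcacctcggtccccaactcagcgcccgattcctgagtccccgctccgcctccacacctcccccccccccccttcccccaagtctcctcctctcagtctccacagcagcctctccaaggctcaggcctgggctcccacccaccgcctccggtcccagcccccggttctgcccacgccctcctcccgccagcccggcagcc
Nab1: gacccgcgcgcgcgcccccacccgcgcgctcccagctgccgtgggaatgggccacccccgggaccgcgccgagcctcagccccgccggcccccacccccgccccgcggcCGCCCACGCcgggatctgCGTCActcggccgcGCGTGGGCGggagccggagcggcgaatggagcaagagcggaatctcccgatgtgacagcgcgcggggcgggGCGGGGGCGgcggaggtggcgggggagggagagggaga
The Egr2 window held a CArG box 72 to 63 bases before the start with a half-site on either side of it. Among the other annotated Egr2 starts, the window chr10:67535249-67535498 held no match, and chr10:67537316-67537565 a CArG box only. The overlapping windows chr10:67537620-67537869 and chr10:67537680-67537929 held the same CArG box and half-sites as the window shown. The Egr4 window held 2 half-sites and no match to the CArG box. The Nab1 window held 2 copies of GCGTGGGCG, 1 of GCGGGGGCG and 1 half-site, and the Nab2 window held none of these letters. That Nab2 window lies inside the gene, whose 5′ end is at chr10:127668568, so the bases before this end were not searched. Among all 32851 windows of the same length in the table, 0.536% contained GCGTGGGCG, 2.57% GCGGGGGCG, 17.8% the half-site, which lies within the full CREB site TGACGTCA found in 1.55%, and 1.47% the CArG box. These matches describe letters only, and no binding was measured.

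Before the results, 3 libraries need naming. WT vehicle replicate 1 and Brd1+/- IMN replicate 6 stood apart for the members themselves: the first had the lowest Egr2, Egr3, Egr4 and Nab2 levels of its group and the second lowest Egr1 level, and the second had the lowest level of all 4 Egr genes and Nab2. Both had the highest summed level of 10 oligodendrocyte markers (Mbp, Mog and others) in their group, 2841 TPM against a group median of 421 TPM and 3445 TPM against a median of 750 TPM, and the lowest summed level of 6 microglial markers. Brd1+/- vehicle replicate 6 had 1487 TPM of 10 striatal markers and 3903 TPM of 6 choroid plexus markers, where the group medians were 208 and 2.01 TPM. This library too had the highest oligodendrocyte sum of its group (1800 TPM, median 603 TPM), while among the 9 libraries of its group it was the sixth lowest for Egr4 and Nab2, the fourth lowest for Egr1 and Egr2 and the second lowest for Egr3 and Nab1. All 6 excitatory cortical neuron markers, including Slc17a7, were detected in every group. Their sums ran from 2764 TPM in Brd1+/- IMN replicate 6, where the group median was 4765 TPM, to 6035 TPM, and Brd1+/- vehicle replicate 6 had the lowest sum of its group at 4246 TPM. Mitochondrially encoded genes took 21.7 to 30.5% of the TPM, with 28.0% in Brd1+/- IMN replicate 6, the highest of its group. Brd1, the deleted gene, was with vehicle at 26.4 ± 3.03 TPM (SD, n = 8) in WT and 16.8 ± 2.72 (n = 9) in Brd1+/- mice. With IMN it was at 23.3 ± 3.43 (n = 10) and 16.8 ± 2.1 (n = 9). The vehicle groups did not overlap (exact permutation test, two-sided, p = 8.23e-05 over 24310 arrangements), and the exact permutation p was 0.000325 in IMN mice. By limma with adjustment over all genes Brd1 did not pass, with an adjusted p of 0.062 in vehicle and 0.88 in IMN mice. The level includes reads outside the deleted exons.

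The comparison of IMN with vehicle asks how the drug altered the activity-regulated state of the aCC after the swim. Averaged over both genotypes, all 6 members were lower with IMN. The log2 difference was −1.07 (SE 0.32) for Egr2, −0.83 (SE 0.20) for Egr3, −0.66 (SE 0.13) for Egr1, −0.61 (SE 0.18) for Egr4, −0.32 (SE 0.07) for Nab2 and −0.16 (SE 0.11) for Nab1. The median of the 6 was −0.64, while the median over all 25572 genes was −0.002. In a bulk punch a lower level can stand for less RNA per cell or for fewer cells that carry it, and these cannot be told apart.

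Egr1, the activity marker, lay between 178 and 415 TPM (median 291) in WT vehicle and between 154 and 287 TPM (median 195) in WT IMN mice. In Brd1+/- mice it lay between 236 and 437 TPM (median 312) with vehicle and between 95.5 and 340 TPM (median 187) with IMN. All 10 WT IMN libraries were below the WT vehicle median, and 8 of 9 Brd1+/- IMN libraries were below the lowest Brd1+/- vehicle library, the exception being Brd1+/- IMN replicate 7. The log2 difference was −0.54 (SE 0.16) in WT and −0.78 (SE 0.19) in Brd1+/- mice.

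Egr2 lay between 3.39 and 42.6 TPM (median 33.6) in WT vehicle and between 4.65 and 26.1 TPM (median 13.7) in WT IMN mice. In Brd1+/- mice the range was 12.9 to 43.6 TPM (median 31.8) with vehicle and 1.11 to 28.1 TPM (median 17.8) with IMN. WT vehicle replicate 1 was below all 10 WT IMN libraries. Without it the lowest WT vehicle level was 22.4 TPM, and 8 of 10 WT IMN libraries were below that. The log2 difference was −0.97 (SE 0.42) in WT mice, −1.36 (SE 0.30) without WT vehicle replicate 1, −1.18 (SE 0.45) in Brd1+/- mice and −0.81 (SE 0.33) without Brd1+/- IMN replicate 6.

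Egr3 ranged from 111 to 267 TPM (median 228) in WT vehicle and from 43.6 to 186 TPM (median 112) in WT IMN mice. It ranged from 79.7 to 208 TPM (median 184) in Brd1+/- vehicle and from 21.4 to 169 TPM (median 86.4) in Brd1+/- IMN mice. All 19 IMN libraries lay below the vehicle median of their own genotype, and the ranges overlapped in both. The mean difference was −0.85 (SE 0.24) on the log2 scale in WT and −0.81 (SE 0.31) in Brd1+/- mice, the latter −0.57 (SE 0.22) without replicate 6.

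Egr4, the EGR factor without a NAB docking site, ranged from 24.9 to 115 TPM (median 81.9) in WT vehicle and from 26.0 to 71.4 TPM (median 51.1) in WT IMN mice. The Brd1+/- ranges were 44.5 to 91.4 TPM (median 76.7) with vehicle and 14.2 to 67.9 TPM (median 52.9) with IMN. With all libraries the WT ranges overlapped, but without WT vehicle replicate 1 the lowest WT vehicle level was 76.3 TPM and all 10 WT IMN libraries were below it. The log2 difference was −0.65 (SE 0.24) in WT mice and −0.88 (SE 0.17) without that replicate. In Brd1+/- mice it was −0.58 (SE 0.23), and −0.37 (SE 0.14) without Brd1+/- IMN replicate 6.

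Nab2, the inducible corepressor, ranged from 38.4 to 60.3 TPM (median 56.0) in WT vehicle and from 29.2 to 47.3 TPM (median 41.3) in WT IMN mice. It ranged from 35.4 to 56.3 TPM (median 46.1) in Brd1+/- vehicle and from 26.1 to 46.3 TPM (median 41.8) in Brd1+/- IMN mice. As for Egr4, the WT groups separated once WT vehicle replicate 1 was left out, since the other 7 vehicle libraries held 53.2 TPM or more. The log2 difference was −0.42 (SE 0.09) in WT mice and −0.48 (SE 0.08) without that replicate, against −0.22 (SE 0.11) in Brd1+/- mice and −0.15 (SE 0.09) without replicate 6. Nab2 overlaps Stat6, Nemp1 and the antisense gene Gm16229 on the other strand, and use of strand in the counting is not given in the sources used here, so its level is uncertain. These neighbours were far lower, at means of 7.06, 2.89 and 0.48 TPM.

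Nab1, the other corepressor, ranged from 13.1 to 19.0 TPM (median 16.8) in WT vehicle and from 10.3 to 18.3 TPM (median 12.8) in WT IMN mice. In Brd1+/- mice the range was 11.6 to 19.0 TPM (median 16.4) with vehicle and 9.41 to 23.2 TPM (median 17.5) with IMN. The Brd1+/- IMN libraries lay on both sides of their vehicle group, 4 of 9 below its lowest and 3 above its highest library. On the log2 scale IMN minus vehicle was −0.30 (SE 0.12) in WT and −0.03 (SE 0.18) in Brd1+/- mice.

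**Figure D2:**
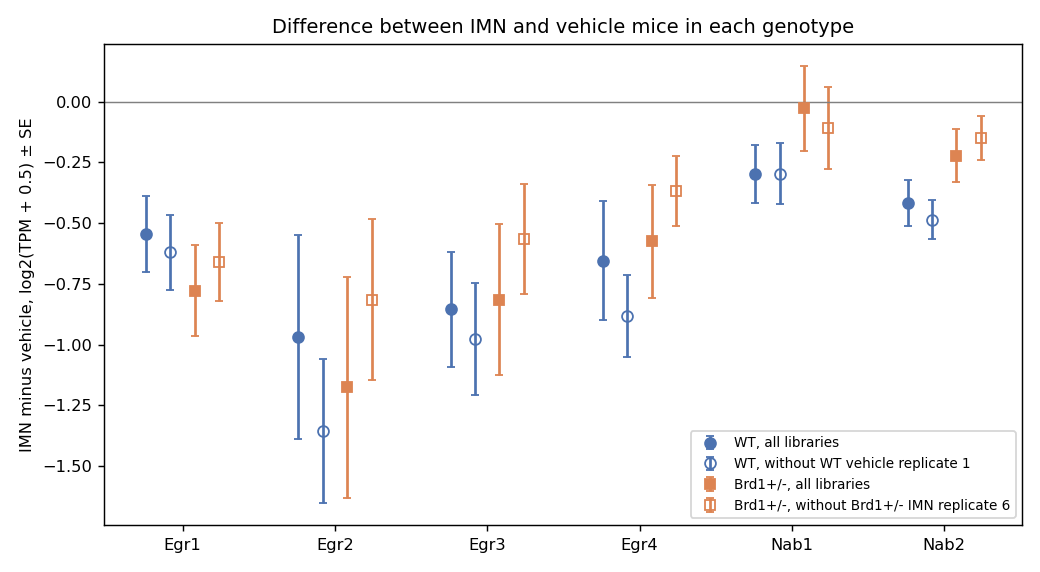
Log2 difference between IMN and vehicle mice (difference of group means of log2(TPM + 0.5), bars ± SE) for each member in WT (circles) and Brd1+/- mice (squares). Filled symbols use all libraries and open symbols leave out 1 library. Leaving out WT vehicle replicate 1 takes the Egr2 difference in WT mice from −0.97 to −1.36, and leaving out Brd1+/- IMN replicate 6 takes that in Brd1+/- mice from −1.18 to −0.81.

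For orientation, calls are given as counts beside their background over all genes. With an adjusted p below 0.05 by limma, 2 of the 6 members (Egr1 and Nab2) passed in the average over both genotypes, where 0.164% of all genes passed with lower levels. No member passed in Brd1+/- mice alone, where 0.00391% of genes passed with lower levels, or in WT mice alone, where 0% did; at an unadjusted p below 0.05, 1412 and 1687 genes passed in these comparisons. Without WT vehicle replicate 1, 5 members (all but Nab1) passed in the average and 2 (Egr4 and Nab2) in WT mice, against backgrounds of 0.469% and 0.113%, and 0.0899% of genes had every WT IMN library below every remaining WT vehicle library, as Egr4 and Nab2 did. With WT vehicle replicate 1 and Brd1+/- IMN replicate 6 both left out, 5 members passed in the average, where 117 of 25572 genes passed, 90 of them with lower levels. Since the family was picked on this contrast, nothing is read from these counts.

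The genotype comparisons ask whether loss of 1 Brd1 copy shifted the family. In vehicle mice no member passed (adjusted p = 1.00 for each, limma), and 0% of all genes did, with 959 genes at an unadjusted p below 0.05. Nab2 had the smallest p: 46.9 ± 7.08 TPM (SD, n = 9) in Brd1+/- against 54.2 ± 6.88 TPM (n = 8) in WT mice, a log2 difference of −0.21 (SE 0.10; exact permutation test, two-sided, p = 0.062). Without WT vehicle replicate 1 its difference was −0.28 (SE 0.09), 7 of 9 Brd1+/- libraries were below the lowest WT library, and the adjusted p was 0.64. Egr3 differed by −0.39 (SE 0.22; exact permutation p = 0.14), with all 9 Brd1+/- vehicle libraries below the WT median. Egr1 was at +0.14 (SE 0.18), Egr4 at −0.16 (SE 0.24), Nab1 at −0.13 (SE 0.11) and Egr2 at +0.07 (SE 0.40), with exact permutation p of 0.27 to 0.90. Without WT vehicle replicate 1 the Egr2 difference turned to −0.32 (SE 0.24). Those of Egr3 and Egr4 were then −0.51 (SE 0.21, limma adjusted p = 0.73) and −0.39 (SE 0.14, limma adjusted p = 0.71). On leaving out each library in turn Egr1 lay between +0.039 and +0.21 and Egr4 between −0.39 and −0.072. In IMN mice the differences were −0.10 (SE 0.17) for Egr1, −0.14 (SE 0.46) for Egr2, −0.35 (SE 0.31) for Egr3, −0.08 (SE 0.24) for Egr4, +0.14 (SE 0.17) for Nab1 and −0.02 (SE 0.10) for Nab2. None passed (exact permutation p of 0.34 to 0.88, limma adjusted p = 1.00), 0% of all genes did, and 826 genes had an unadjusted p below 0.05. Without Brd1+/- IMN replicate 6 the sign turned for Egr1, Egr2, Egr4 and Nab2, Egr3 was at −0.097 (SE 0.24) and Nab1 at +0.062 (SE 0.17). These results do not show that the genotypes were alike, since the deleted gene itself did not pass the same criterion here. The study, which tested with edgeR, reported Brd1 as significant in the aCC of vehicle mice after false discovery rate correction.

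Whether IMN acted differently in the genotypes was tested with the interaction term of genotype and IMN. It was −0.23 (SE 0.25) for Egr1, −0.21 (SE 0.65) for Egr2, +0.04 (SE 0.41) for Egr3, +0.08 (SE 0.35) for Egr4, +0.27 (SE 0.22) for Nab1 and +0.19 (SE 0.15) for Nab2, where a positive value is a smaller decrease or larger increase with IMN in Brd1+/- mice. No member passed (limma adjusted p = 1.00 for each), 0% of all genes passed, and 818 genes had an unadjusted p below 0.05. The difference between the genotypes in Nab1 and Nab2 was therefore not shown.

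Across mice, the members' levels were compared after subtracting each group's mean, which removes the differences between the 4 groups. Of 15 pairs, 9 were correlated at an adjusted permutation p below 0.05 over the 15, all of them among Egr1, Egr2, Egr3, Egr4 and Nab2. The share of all gene pairs that reach such values was not computed, so the 9 are not shown to be a trait of the family. Among 17695 other genes averaging 1 TPM or more, Egr4 ranked 15th for r with Egr2, but Egr3 only 1106th (r = 0.57). The closest pair was Egr2 and Egr4, with Pearson's r = 0.90 (permutation p = 1e-05, the smallest 100000 permutations within groups can give, adjusted p = 5e-05) and Spearman's rho = 0.87 (adjusted permutation p = 5e-05) over 36 mice. Egr4 and Nab2 followed with r = 0.86 and rho = 0.78 (adjusted permutation p = 5e-05 for both). Egr1 and Egr2 had r = 0.75 and rho = 0.72 (adjusted permutation p = 5e-05 for both), Egr2 and Nab2 r = 0.74 and rho = 0.64 (adjusted permutation p = 0.00021 and 0.00042), Egr1 and Egr4 r = 0.71 and rho = 0.68 (7.5e-05 and 0.000112), and Egr1 and Nab2 r = 0.59 and rho = 0.55 (0.0017 and 0.0027). Without the 2 mice farthest from the median of the first-named gene, r in these pairs was 0.79 for Egr2 and Egr4, 0.77 for Egr4 and Nab2, 0.67 for Egr1 and Egr2, 0.54 for Egr2 and Nab2, 0.61 for Egr1 and Egr4 and 0.47 for Egr1 and Nab2.

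Egr3 and Nab1 stood outside this set. The r of Egr3 was 0.57 with Egr2, 0.53 with Egr4 and 0.53 with Nab2 (adjusted permutation p of 0.0048, 0.0092 and 0.0082). It was 0.28, 0.29 and 0.31 without the 2 farthest mice, so the size of r in these 3 pairs depended on those mice. Spearman's rho for these pairs was 0.41, 0.28 and 0.37 (adjusted permutation p of 0.048, 0.15 and 0.063). Egr1 and Egr3 had r = 0.38 (adjusted permutation p = 0.069). Nab1 had r between −0.15 and 0.09 with the other members (adjusted permutation p of 0.65 to 0.94). Without WT vehicle replicate 1 and Brd1+/- IMN replicate 6, the 6 pairs among Egr1, Egr2, Egr4 and Nab2 still passed, with r of 0.39 to 0.77, the Egr3 pairs with Egr2, Egr4 and Nab2 did not (r of 0.25, 0.13 and 0.23), and Egr3 with Nab1 was at r = 0.42 (adjusted permutation p = 0.044).

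**Figure D3:**
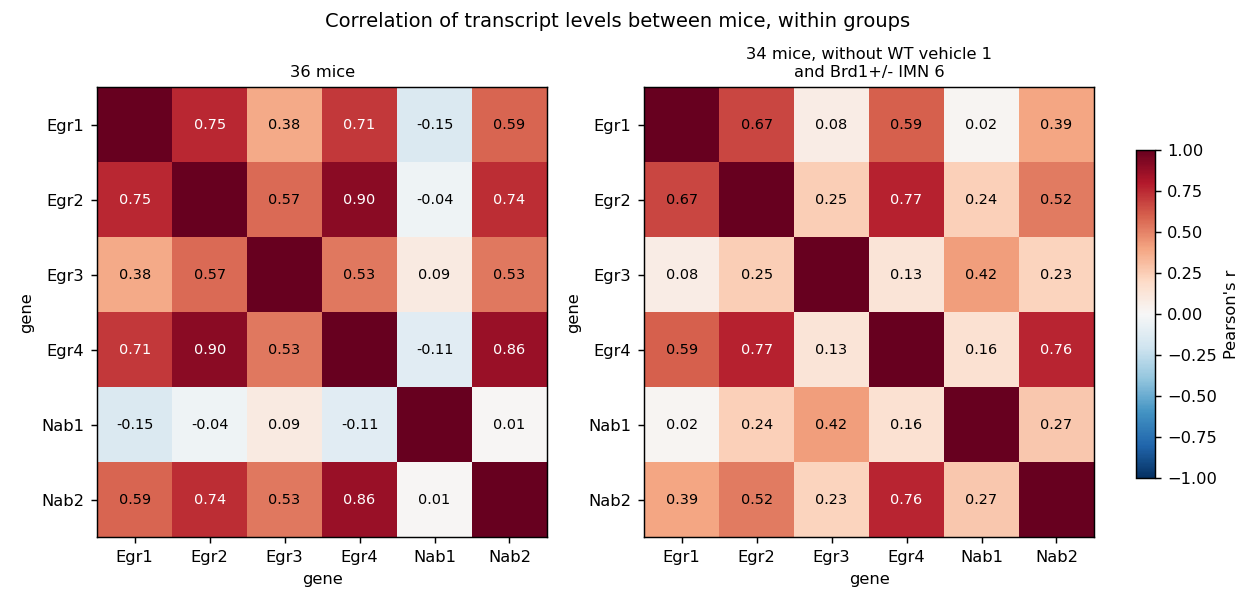
Pearson's r between members over mice after subtraction of group means, with all 36 libraries (left) and without WT vehicle replicate 1 and Brd1+/- IMN replicate 6 (right). Egr2 and Egr4 give 0.90 and 0.77, Egr4 and Nab2 0.86 and 0.76, while Nab1 stays between −0.15 and 0.09 on the left.

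Over all 17695 other genes averaging 1 TPM or more, the closest to each member by this r were listed as a description. For Egr1 these were Dnajb5 (0.85), Ncan (0.80), the clock gene Per1 (0.79), Smap2 (0.79) and the immediate-early nuclear receptor gene Nr4a1 (0.78). Egr2 went with Prag1 (0.96), Dusp18 (0.94), Mpp2 (0.93), Otof (0.92) and the ETS repressor gene Erf (0.92), and Egr4 ranked 15th with it. Egr4 was closest to Marcksl1 (0.96), Dyrk3 (0.95), the AP-1 gene Junb (0.95), Klf16 (0.92) and Mpp2 (0.92), and Egr2 ranked 8th. For Nab2 the order was Junb (0.88), Efna3 (0.86), Egr4 itself (0.86), Pdgfb (0.86) and Dyrk3 (0.83). Egr3 had lower values, led by Zdhhc14 (0.72), Syt17 (0.71), 1700016P03Rik (0.70), Camk1 (0.70) and Gm5145 (0.69). Nab1 had the lowest, with A230072C01Rik (0.63), 4931406P16Rik (0.61), Riok1 (0.57), Gm9403 (0.54) and Myo6 (0.54). Members not named above ranked further down. With Egr1, Egr2 ranked 9th, Egr4 39th, Nab2 233rd and Egr3 1470th. With Egr2, Egr1 ranked 270th, Nab2 325th and Egr3 1106th. With Egr4, Nab2 ranked 35th, Egr1 421st and Egr3 1349th. With Nab2, Egr2 ranked 57th, Egr1 553rd and Egr3 917th. With Egr3 the closest member was Egr2 at 131st. For most pairs many genes outside the family were therefore closer.

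Oligodendrocyte marker levels moved with Egr2 and Egr4 between mice. The mean log2(TPM + 0.5) of the 10 oligodendrocyte markers, compared in the same way after the data had been seen, gave r = −0.73 and rho = −0.72 with Egr2 (adjusted permutation p = 0.00024 and 0.00012 over the 6 members) and r = −0.66 and rho = −0.59 with Egr4 (0.00024 and 0.00144). Nab2 had r = −0.46 and rho = −0.40 (adjusted permutation p = 0.016 and 0.043), Egr3 r = −0.39 and rho = −0.28 (0.045 and 0.14), Egr1 r = −0.37 and rho = −0.35 (0.046 and 0.068) and Nab1 r = 0.06 and rho = −0.02 (0.75 and 0.89). Without the 2 mice farthest on the score r was −0.70 for Egr2, −0.59 for Egr4, −0.38 for Nab2, −0.37 for Egr3 and −0.29 for Egr1. Leaving out WT vehicle replicate 1 and Brd1+/- IMN replicate 6, Egr2 (r = −0.60, adjusted permutation p = 0.0047) and Egr4 (r = −0.48, 0.029) passed and the other 4 did not (0.57 to 0.69). The share of all genes that reach such values with the score was not computed, so this is not shown to be a trait of Egr2, Egr4 or the family. The summed level of the 10 markers had a median of 421 TPM (range 192 to 2841) in WT and 603 TPM (240 to 1800) in Brd1+/- mice with vehicle, and of 984 TPM (233 to 3570) and 750 TPM (230 to 3445) with IMN, and none of the 10 was at 0. With the score as a covariate the average IMN difference was −0.81 (SE 0.23) for Egr2, −0.75 (SE 0.19) for Egr3, −0.61 (SE 0.12) for Egr1, −0.49 (SE 0.14) for Egr4, −0.28 (SE 0.07) for Nab2 and −0.17 (SE 0.11) for Nab1. All 10 markers had a positive log2 difference with IMN, with a median of 0.41, and none passed.

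**Figure D4:**
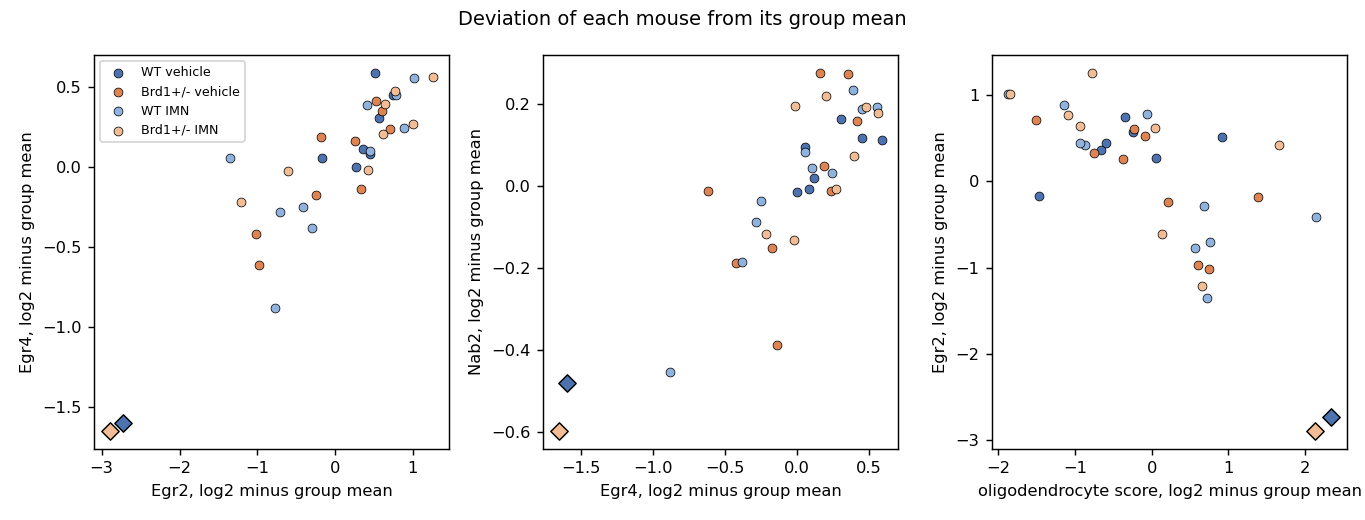
Deviation of each mouse from its group mean on the log2 scale for Egr4 against Egr2 (left), Nab2 against Egr4 (middle) and Egr2 against the oligodendrocyte score, the mean log2 level of 10 markers (right). Diamonds are WT vehicle replicate 1 and Brd1+/- IMN replicate 6, which lie at the low end of all 3 genes and at the high end of the score. The r over all 36 mice is 0.90, 0.86 and −0.73.

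The genes around the family were examined by lists. Among 22 signal inputs to the Egr genes (serum response factor, ETS partners, CREB family members, MAP kinases and their targets) none passed in any comparison by limma. Srf, which encodes serum response factor, was at 39.8 ± 5.42 TPM (SD, n = 8) with vehicle and 32.1 ± 4.91 TPM (n = 10) with IMN in WT mice, 35.5 ± 4.42 (n = 9) in Brd1+/- vehicle and 31.7 ± 5.53 (n = 9) in Brd1+/- IMN mice, with an average log2 difference of −0.24 (SE 0.07, adjusted p = 0.16). Mapk3, the ERK1 kinase gene, had −0.37 (SE 0.13, adjusted p = 0.31), and Mef2c, an activity-dependent factor gene, +0.56 (SE 0.23, adjusted p = 0.42). The Mef2c average joined +1.17 (SE 0.26, adjusted p = 0.49) in Brd1+/- mice and −0.05 (SE 0.37, adjusted p = 0.99) in WT mice, and its interaction of +1.22 (SE 0.47, limma adjusted p = 1.00) did not pass. The list's median was −0.07, with 17 of 22 genes below 0.

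Of 16 reported EGR target genes, 1 passed with a lower and 1 with a higher level with IMN in the average over genotypes, where 0.164% of all genes passed lower and 0.0899% higher. Arc, a synaptic gene that is itself immediate-early and so of the kind known to be lower, is given as a description. Its mean went from 277 ± 67.5 (SD, n = 8) to 189 ± 44.9 TPM (n = 10) in WT and from 282 ± 82.9 (n = 9) to 162 ± 57.5 TPM (n = 9) in Brd1+/- mice, a log2 difference of −0.67 (SE 0.13). F3, which encodes tissue factor, rose from 32.2 ± 3.43 to 39.2 ± 4.91 TPM in WT and from 33.1 ± 6.39 to 40.8 ± 5.22 TPM in Brd1+/- mice (same n), a log2 difference of +0.29 (SE 0.07, limma adjusted p = 0.040). Cdk5r1, which encodes the p35 activator of CDK5, had −0.21 (SE 0.06, adjusted p = 0.12), and −0.23 (SE 0.06, adjusted p = 0.034) without WT vehicle replicate 1. The median of the 16 was −0.10. None passed for genotype. Tgfb1 and the glucocorticoid receptor gene Nr3c1 were the members with the smallest p for genotype in vehicle mice, and their average differences with IMN were −0.12 (SE 0.12) and −0.03 (SE 0.07).

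None of the 14 NuRD subunit genes passed in any comparison. Chd4, the subunit that NAB proteins contact, had −0.15 (SE 0.06, adjusted p = 0.40) with IMN and Mta3 +0.15 (SE 0.06, adjusted p = 0.40), and the list's median was −0.00096. None of 6 tested genes of other GC-box zinc finger factors (Sp1, Sp2, Sp3, Sp4, Maz and Zbtb7a, which bind like DNA) passed, with differences of −0.05 to 0.08. The 17 other immediate-early genes were chosen, like the family, with lower levels after IMN known, and are described without a test. Their median difference was −0.32, and 14 of 17 were below 0, where 51.1% of all genes were. Npas4, which encodes a neuronal activity-dependent transcription factor, had the lowest at −0.94 (SE 0.17). By limma 1 of the 17, Npas4, passed in the average, where 0.164% of all genes passed with lower levels. Without WT vehicle replicate 1, 6 passed with lower levels (Fos, Fosb, Fosl2, Npas4, Nr4a1 and Klf4), against a background of 0.469%. As for the family, nothing is read from these counts.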

How the data were processed

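The authors trimmed and checked single-end reads (Trimmomatic, FastQC), aligned them to GRCm38 with HISAT2 2.1.0 and estimated levels with StringTie 1.3.4; the deposited values used here are TPM per gene, with no counts and no depth per library, so precision rests on the spread between mice alone. TPM have the same sum in every library, so a gene's value also moves with the rest of its library. Use of strand and of multiply mapped reads is not given in the sources used here.

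Symbols matched 52403 of 52636 gene identifiers. Genes at 0.1 TPM or more in at least 8 of 36 libraries (25572) were tested on log2(TPM + 0.5) with limma 3.58.1 (R 4.3.3, moderated with a mean-variance trend) and Benjamini-Hochberg adjustment over all of them. Comparisons of 2 groups used only those groups, and the average over genotypes and the interaction used all 36 libraries. The code was tested on simulated data. Single genes were also compared with exact permutation tests, and correlations with 100000 permutations within groups (Python 3.11.15, SciPy 1.17.1). Promoter windows came from RefSeq's GRCm38.p6 table, and members' neighbours from an annotation of the same build. The 36 libraries were distinct, with r of 0.977 to 0.989 between the 630 pairs.

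The members, lists, tests and alternatives were chosen with earlier results of these data known. Genes were named by rule: the 6 members, Brd1, from each pathway list those with adjusted p below 0.05 in any comparison and the 2 with the smallest p for the average IMN difference and for genotype in vehicle mice, and the 5 genes closest to each member. Rbbp7, Mta1, Sp2, Zbtb7a, Maz, Maff and Homer1, which the rule also reached, had no adjusted p below 0.05. The alternatives were other pseudocounts, filters and scalings, sample weights, all groups in 1 fit, a replicate block and leaving out each library. The oligodendrocyte covariate and the joint removal of 2 libraries were added after seeing the data.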

Additional observations from a re-analysis of the deposited data

Results flagged for a closer look

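There were 24 sets of values, 1 for each member in each group. In each set the gap between the most extreme mouse and the nearest mouse was divided by the group's range. In 7 sets this lay beyond the 95% limit for the group's size, with the same mouse in several of them. About 1 in 20 sets does so by chance, and the 6 genes share their libraries. WT vehicle replicate 1 had already been singled out when the family was chosen, so its sets cannot be held against that rate. WT vehicle replicate 1 was the lowest for Egr2 (3.39 TPM, the next mouse 22.4 TPM), Egr4 (24.9 TPM, the next 76.3 TPM) and Nab2 (38.4 TPM, the next 53.2 TPM). Brd1+/- IMN replicate 6 was the lowest for Egr3 (21.4 TPM, the next 65.1 TPM), Egr4 (14.2 TPM, the next 39.4 TPM) and Nab2 (26.1 TPM, the next 36.2 TPM). WT IMN replicate 2 was the lowest for Egr3 (43.6 TPM, the next 90.7 TPM). The first and second of these libraries also had the highest oligodendrocyte marker sums of their groups, 2841 and 3445 TPM. So did Brd1+/- vehicle replicate 6 (1800 TPM), which lay beyond the limit for no member. WT IMN replicate 7 had the highest oligodendrocyte score of all 36 libraries (7.67) and also lay beyond the limit for no member. The part of oligodendrocyte content in the low levels was not tested.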

How the results depend on the processing

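In the average over genotypes every member kept its sign with IMN under each alternative run, and the differences ranged from −1.27 to −0.81 for Egr2, −0.96 to −0.71 for Egr3, −0.72 to −0.60 for Egr1, −0.73 to −0.49 for Egr4, −0.35 to −0.28 for Nab2 and −0.22 to −0.12 for Nab1. The number of members passing in that average, 2 in the report, was 1 without a filter on low values, 1 after quantile normalization, 1 with the oligodendrocyte covariate, 5 with sample weights, 5 without WT vehicle replicate 1 and Brd1+/- IMN replicate 6, and 1 to 5 when each library was left out; Egr1 passed in each of these, and the 5 came without WT vehicle replicate 1. The count over all genes, 65, was 40 without a filter, 205 with sample weights, 117 without those 2 libraries, and 34 (without Brd1+/- vehicle replicate 4) to 163 (without WT vehicle replicate 1) on leaving out 1. In WT mice alone, leaving out 1 library gave 0 to 32 genes and 0 to 2 members, again through WT vehicle replicate 1. In Brd1+/- mice alone the 2 genes became 1 with median-ratio scaling, all 36 libraries in 1 fit, sample weights or the covariate, 0 under the other alternatives, and 0 to 1 on leaving out 1 library. For genotype in vehicle mice the count over all genes, 0, was 1 with quantile normalization, median-ratio scaling, all 36 in 1 fit or only genes averaging 1 TPM or more, and 0 to 2 on leaving out 1 library. The cause of these shifts was not tested.

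Replicate numbers are shared between groups, but same-numbered mice did not deviate together (median correlations of −0.07 to 0.05 between group pairs), so the numbers do not pair the samples. With a replicate block, which kept 32 libraries, 27 genes and 0 members passed in the average, 0 genes in Brd1+/- mice, and no other count of calls changed.

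Signs turned for differences near 0. With sample weights Egr2 was −0.055 for genotype in vehicle mice, Egr2, Egr4 and Nab2 were 0.056, 0.036 and 0.023 for genotype in IMN mice, and the Egr2 interaction was 0.10. With the covariate the interaction was −0.053 for Egr3 and −0.057 for Egr4. On leaving out 1 library, Egr2 ranged from −0.32 to 0.20 for genotype in vehicle mice. For genotype in IMN mice the ranges were −0.21 to 0.021 (Egr1), −0.30 to 0.22 (Egr2), −0.18 to 0.13 (Egr4) and −0.067 to 0.058 (Nab2). Interactions ranged from −0.37 to 0.18 (Egr2), −0.11 to 0.29 (Egr3) and −0.020 to 0.31 (Egr4). The r of Nab1 and Nab2 was −0.0048 with median-ratio scaling, and without the 2 libraries the r of Nab1 was 0.018 with Egr1, 0.24 with Egr2 and 0.16 with Egr4 (−0.15, −0.049 and −0.13 without WT vehicle replicate 1 alone). The number of correlated pairs, 9, was 9 under the other scalings and pseudocounts, 8 without WT vehicle replicate 1 and 7 without both libraries.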
